A study of Rattus norvegicus with 9 samples.

Results

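Giot1 and the nuclear receptor genes Nr5a1 and Nr0b1 were followed in rat adrenal zona glomerulosa cells, the outermost layer of the adrenal cortex and the source of aldosterone. Members were all probe sets of an Affymetrix Rat Genome 230 2.0 array for which the platform annotation gave 1 of these 3 symbols alone. They are 3 of 14217 genes named on the array, with 4 of its 31042 probe sets that were not controls: 1 for Giot1 (Entrez gene 171090), 2 for Nr5a1 (83826) and 1 for Nr0b1 (58850). All 4 were bright enough to be tested. The cells were freshly dispersed, and each of 3 independent preparations supplied 1 tube for each of 3 groups. Every tube was held for 2 h at 37 °C in medium with 0.5% bovine serum albumin free of fatty acid under 5% CO2. Control tubes received no stimulus, Ang II tubes received 100 nM angiotensin II, and potassium tubes received 16 mM potassium. The labels do not give the strain, sex, age or number of rats behind a preparation. Each of the 9 arrays gave 1 linear signal per probe set, an intensity in arbitrary units, which cannot be set against the signal of another probe set. Differences were taken after adding 16 to each signal and moving to log2, so those of faint probe sets come out too small. With 3 tubes a group, precision is limited. Nothing in the labels ties a tube to 1 rat, so the spread is that between preparations of cells.

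Nr5a1, also called steroidogenic factor 1, is an orphan nuclear receptor that binds the promoters of most steroid enzyme genes and is needed for the adrenal gland to form. Nr0b1, also called DAX-1, is an unusual member of the same superfamily that lacks the classical DNA-binding domain and acts mainly as a repressor of Nr5a1. Giot1, the gonadotropin-inducible ovarian transcription repressor 1, is a zinc-finger protein with a KRAB repression domain. It is known as a target of the orphan receptor Nr4a1 and as a corepressor of Nr5a1 that recruits the histone deacetylase Hdac2. The group therefore holds an activator of steroid synthesis and a pair of its repressors. The 3 genes were chosen by their signals in these same control, Ang II and potassium tubes, so their levels and differences are given as a description and without a test.

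Giot1 was several times higher with either stimulus. Its signals were 2237, 1563 and 1792 in the control tubes of preparations 1, 2 and 3. They were 7161, 8597 and 6833 after Ang II, and 8968, 7847 and 7429 after potassium. The lowest stimulated tube was thus far above the highest control tube, and the Ang II and potassium signals overlapped. Of all tested probe sets, 7.30% had Ang II signals wholly above control and 7.84% had potassium signals wholly above control. The group means were 1864 ± 343 in control, 7530.4 ± 938 after Ang II and 8081 ± 796 after potassium (SD, n = 3).

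The rise of Giot1 was seen within every preparation, but its size varied more after Ang II than after potassium. With Ang II the ratio to the control tube was 3.19 in preparation 1, 5.45 in preparation 2 and 3.79 in preparation 3. With potassium the ratios were 3.99, 4.98 and 4.12. Preparation 2, whose control tube had the lowest Giot1 signal, gave the highest ratio with both stimuli. The control array of that preparation also had the highest median signal of the 9 arrays, 173 against 128 to 144 for the others, and its part in the Giot1 ratio was not tested. Fitted over all arrays, the log2 difference of Giot1 was 2.01 ± 0.10 (SE) for Ang II and 2.12 ± 0.10 for potassium. Without that control array the fitted differences of Giot1 were 1.86 and 1.96. Among 18625 tested probe sets, Giot1 had the sixth largest increase after Ang II and the seventh after potassium (ranks 6 and 7).

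**Figure D1:**
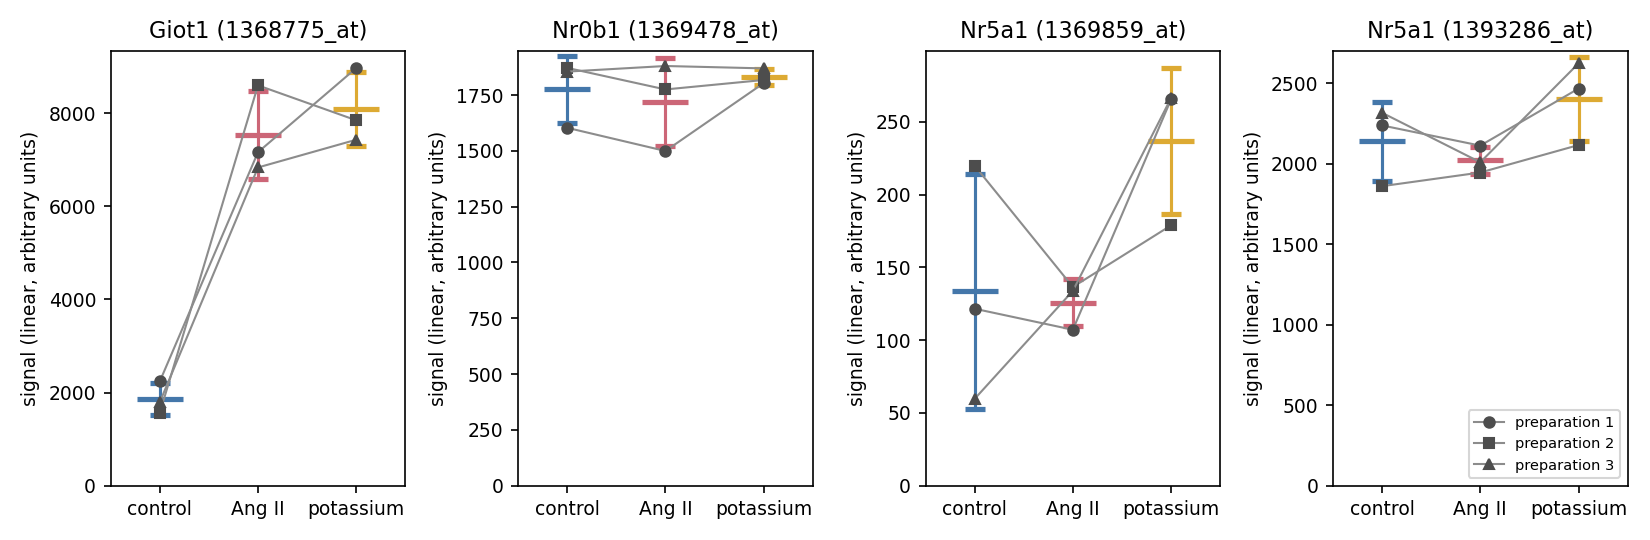
Linear signal (y axis, arbitrary units) of the 4 member probe sets in control, Ang II and potassium tubes, with 1 symbol per preparation joined by grey lines, and coloured bars for the mean ± SD of 3 tubes. Giot1 rises from 1563 to 2237 in control to 6833 or more in every stimulated tube, whereas Nr0b1 and the bright Nr5a1 probe set stay between 1499 and 2623.

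The upstream sequence of Giot1 is shown because it holds exact matches to elements of CREB and of the Nr4a receptors. It spans chr7:10886966-10887215 of GRCr8, on the minus strand, and is the RefSeq stretch of 250 bases that ends at the annotated transcript start. The upstream stretches of Zfp347 (once named Giot2), Nr5a1 and Nr0b1 are printed with it for comparison, at chr7:8117749-8117998 (plus strand), chr3:42896047-42896296 (minus strand) and chrX:54707408-54707657 (plus strand). All are 5′ to 3′ along the gene, and capitals mark every exact match on either strand.
Giot1: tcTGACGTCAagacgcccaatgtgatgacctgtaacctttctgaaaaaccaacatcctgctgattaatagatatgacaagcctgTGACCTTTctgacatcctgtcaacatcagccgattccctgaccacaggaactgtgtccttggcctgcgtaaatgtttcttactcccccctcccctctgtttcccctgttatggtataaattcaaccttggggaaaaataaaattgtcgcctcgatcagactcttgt
Zfp347: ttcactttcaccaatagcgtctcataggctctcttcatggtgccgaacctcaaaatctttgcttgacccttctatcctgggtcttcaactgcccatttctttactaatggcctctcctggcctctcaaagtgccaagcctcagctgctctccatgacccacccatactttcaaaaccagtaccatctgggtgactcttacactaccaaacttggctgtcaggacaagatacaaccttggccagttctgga
Nr5a1: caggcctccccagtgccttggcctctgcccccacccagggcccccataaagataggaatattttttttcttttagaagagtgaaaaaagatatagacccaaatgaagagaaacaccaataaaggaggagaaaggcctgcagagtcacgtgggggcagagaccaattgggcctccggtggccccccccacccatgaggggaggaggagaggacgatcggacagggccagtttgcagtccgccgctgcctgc
Nr0b1: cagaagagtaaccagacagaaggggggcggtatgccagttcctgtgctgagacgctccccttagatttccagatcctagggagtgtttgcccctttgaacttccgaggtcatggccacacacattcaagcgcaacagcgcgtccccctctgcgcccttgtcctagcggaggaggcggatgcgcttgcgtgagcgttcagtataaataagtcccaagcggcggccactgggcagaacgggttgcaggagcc

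Each stretch was searched on both strands for 4 motifs of 8 letters. These were TGACGTCA, the cAMP response element (CRE) bound by CREB and its relatives, AAAGGTCA, the response element of Nr4a receptors (NBRE), and the Nr5a1 elements CAAGGTCA and CAAGGCCA. The NBRE and the first Nr5a1 element share their last 7 letters, so that no stretch of 8 bases can match both. Upstream of Giot1 there was a CRE from base -248 to -241 and an NBRE on the opposite strand from base -166 to -159, counted from the transcript start. The CRE was present in 1.59% and the NBRE in 1.24% of 33469 RefSeq promoter stretches of the same length, while the Nr5a1 elements were present in 1.33% and 1.86%. The stretches of Zfp347, Nr5a1 and Nr0b1 held none of the 4 motifs. A match describes letters only, and other spellings of these sites were not searched.

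**Figure D2:**
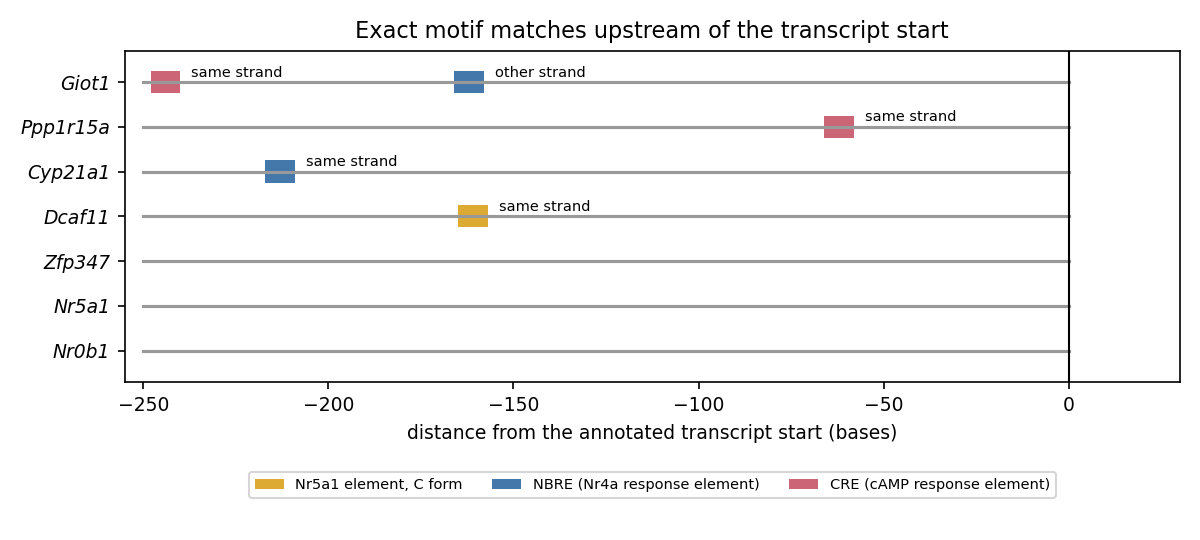
Exact matches of the CRE, the NBRE and the Nr5a1 elements (coloured blocks) in the 250 bases upstream of the transcript start (x axis, bases from the start, which is at 0) for 7 genes (rows). Giot1 carries a CRE and an NBRE, Ppp1r15a a CRE, Cyp21a1 an NBRE and Dcaf11 an Nr5a1 element, and the rows of Zfp347, Nr5a1 and Nr0b1 are empty. The search also covered the genes named by rule and those most correlated with a member, where RefSeq gave a stretch. Every gene with a match is drawn. All other searched stretches, among them those of Nr4a1, Nr4a2, Crem, Cyp11a1 and Hsd3b1, held no match and are not drawn.

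Nr5a1 was represented by a bright and a dim probe set. At the bright one the signals were 2238, 1860 and 2316 in control, 2112, 1945 and 2009 after Ang II, and 2466, 2116 and 2623 after potassium. Potassium was above control within each preparation, by 1.10, 1.14 and 1.13 times, although the groups overlapped, with preparation 2 lowest in each. The fitted log2 difference for potassium was 0.17 ± 0.08 (SE), a rise of 12.3%. For Ang II the difference of this Nr5a1 probe set was -0.07 ± 0.08, with 1 of 3 preparations higher, and it turned to 0.05 when arrays were scaled to a common median.

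The dim Nr5a1 probe set gave 122, 220 and 59.6 in control, 107, 136 and 134 after Ang II, and 265, 179 and 266 after potassium. Its control signals spanned the whole range of the Ang II signals (SD 60.4% of the mean, against 11.4% at the bright probe set). The log2 difference for potassium was 0.89 ± 0.33 (SE), with preparations 1 and 3 higher and preparation 2 lower than its control. It was 0.40 without control replicate 3 and 1.35 without control replicate 2, and lay between 0.38 and 1.47 over all omissions of an array or a preparation. For Ang II the difference was 0.07 ± 0.33.

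What both Nr5a1 probe sets shared was a lower signal after Ang II than after potassium. The log2 difference of Ang II minus potassium was -0.24 ± 0.08 at the bright and -0.82 ± 0.33 at the dim probe set, lower in all 3 preparations at each, and the 3 and 3 signals did not overlap at either. Over all tested probe sets, 9.06% had Ang II signals that lay wholly below those of potassium. Both probe sets read the same RNA of the same tubes, so they do not replicate each other.

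Nr0b1 stayed near its control level. Its signals were 1603, 1872 and 1855 in control, 1499, 1775 and 1880 after Ang II, and 1803, 1817 and 1869 after potassium. The 3 groups overlapped, and the potassium tubes were the most alike (SD 1.90% of the mean, against 8.47% in control and 11.4% after Ang II). The log2 difference was -0.05 ± 0.08 (SE) for Ang II, with 1 of 3 preparations higher, and 0.05 ± 0.08 for potassium, with 2 of 3 higher. The sign for Ang II turned to 0.07 with arrays scaled to a common median, and the difference was 0.0023 without Ang II replicate 1. A larger absolute difference was found for 79.2% of tested probe sets after Ang II and for 83.4% after potassium.

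Side by side, the repressor gene Giot1 was about 4 times its control level with either stimulus, while Nr0b1 and the bright Nr5a1 probe set differed from control by 0.17 or less on the log2 scale. The dim Nr5a1 probe set was at 1.85 times its control level after potassium, with the spread given above. Both comparisons share the same 3 control arrays. Between the stimuli Giot1 differed by -0.10 ± 0.10 (SE), with Ang II higher in 1 of 3 preparations, and Nr0b1 by -0.10 ± 0.08. After values were centred on each preparation's mean, Giot1 correlated across the 9 arrays with Nr0b1 at 0.02, with the bright Nr5a1 probe set at 0.26 and with the dim one at 0.39, all points sharing the same tubes. In RNA from mixed cells, fewer cells of a type and less RNA per cell cannot be told apart.

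The genes whose pattern was most like that of Giot1 were taken by Pearson correlation over the 9 arrays after the same centring. They were Fam110c (0.99), Slc25a5, a mitochondrial ADP/ATP carrier (0.99), Ppp1r15a, also called Gadd34, a stress-induced phosphatase subunit (0.99), Tcim (0.99), the kinesin gene Kif22 (0.99) and Scarb1, the receptor for high-density lipoprotein cholesterol (0.98). All had smaller differences than Giot1. Fam110c went from 1717 ± 140 in control to 3168 ± 182 after Ang II and 3092 ± 201 after potassium (SD, n = 3). Slc25a5 shows that likeness of pattern is not likeness of size, since its log2 differences were 0.09 ± 0.06 and 0.10 ± 0.06 (SE). Scarb1 rose from 5673 ± 1105 to 7755 ± 800 and 8303 ± 1002. Of the 4 with an upstream stretch in RefSeq (Fam110c, Slc25a5, Ppp1r15a and Kif22), Ppp1r15a alone held 1 of the 4 motifs, a CRE from base -66 to -59.

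**Figure D3:**
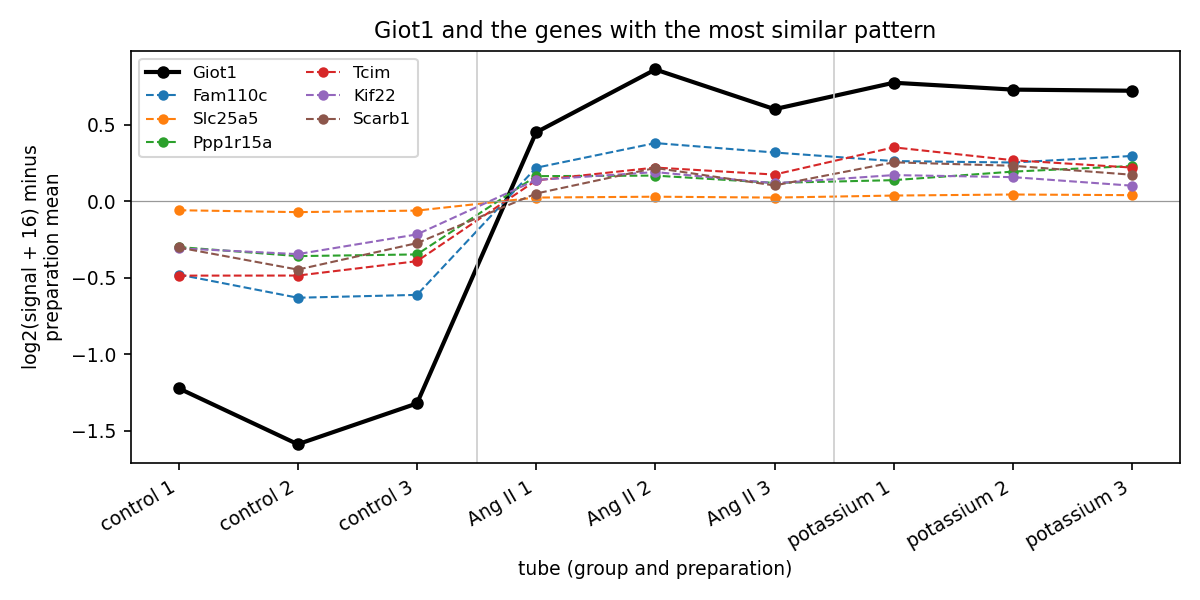
log2(signal + 16) minus the mean of the preparation (y axis) in each of the 9 tubes (x axis) for Giot1 (thick black line) and the 6 genes most correlated with it (dashed). All 7 lines are below 0 in the control tubes and above 0 in the stimulated tubes, with Giot1 the widest and Slc25a5 almost flat. The 6 genes were picked for likeness over these same tubes.

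Genes next to Giot1 in the genome were compared to see whether the change was shared along the chromosome. The order of protein-coding genes came from RefSeq, assembly GRCr8, and this comparison was added after the files had been seen. Of the 5 genes on each side, 5 were measured above the filter on low signals. The immediate neighbour on one side was Vom2r53, annotated as a vomeronasal receptor, and its probe set gave 73.8, 30.9 and 41.1 in control, 214, 218 and 169 after Ang II, and 111, 105 and 115 after potassium. Both stimulated groups lay wholly above control, as was so for 7.30% of tested probe sets after Ang II and 7.84% after potassium. The mean was 200 ± 27.5 after Ang II and 110 ± 4.52 after potassium (SD, n = 3). The log2 difference of Vom2r53 was 1.79 ± 0.29 (SE) for Ang II and 1.02 ± 0.29 for potassium. Its control signals lay below the floor of the filter, a signal of about 81.9, and it passed that filter through its stimulated tubes, so no test of it is given. The other measured neighbours, Plpp2, Mier2, Shc2 and 2610008E11Rikl, had log2 differences from -0.29 to 0.06 after Ang II and from -0.42 to -0.13 after potassium, and none of these passed limma's test. Whether the Vom2r53 probe set also reads RNA of Giot1 was not tested.

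Zfp347, the zinc-finger gene first described as Giot2, moved in the same direction as Giot1 but far less. Its signals were 2217, 2278 and 2461 in control, 3245, 3182 and 3004 after Ang II, and 2887, 2760 and 2480 after potassium. The Ang II tubes lay above all others, and the potassium tubes lay just above the controls. Zfp347 rose after Ang II by 0.44 ± 0.08 on the log2 scale (SE, limma adjusted p = 0.007, higher in 3 of 3 preparations), and after potassium its difference was 0.22 ± 0.08 (adjusted p = 0.14). The call after Ang II ended in 6 of 20 alternative settings, among them the omission of preparation 1, of preparation 2, of control replicate 1, and of Ang II replicate 1 or 2. Whether its probe set also reads RNA of Giot1 was not tested.

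Most other zinc-finger genes did not pass limma's test. Of 186 tested genes with a Zfp, Zkscan or similar symbol, 7 rose and 1 fell after Ang II, and 2 rose and 7 fell after potassium. Over all tested probe sets 1.66% rose and 0.532% fell after Ang II, and 2.78% rose and 2.58% fell after potassium. The calls make 4.30% of the 186 after Ang II, beside 2.20% of all tested probe sets, and 4.84% after potassium, beside 5.36%. The 186 were chosen by symbol and not by protein sequence, so these shares are not those of Giot1's protein class. The median log2 difference of the 186 was -0.10 after Ang II and -0.09 after potassium, beside -0.03 and -0.02 over all tested probe sets. Giot1 lay beyond every one of them in both comparisons. Zkscan5 rose most after Ang II (1.13 ± 0.10, SE) and also rose after potassium (0.51 ± 0.10). Zfp219 (0.88 ± 0.08), Zfp36l2, a factor of mRNA decay (0.55 ± 0.07), and Zfp655 (0.40 ± 0.08) rose after Ang II, and Zfp131 (0.64 ± 0.15) rose after potassium. Zfp36 (0.38 ± 0.09) and Zfp36l1 (0.29 ± 0.06), whose symbols are like that of Zfp36l2, also rose after Ang II. Zfp672 fell with both stimuli, by 0.50 after Ang II and by 1.04 after potassium. The other decreases named, the largest among those that passed after potassium, were those of Zkscan1 (-0.81 ± 0.11), Zfp770 (-0.74 ± 0.14), Zfp639 (-0.56 ± 0.15) and Zfp622 (-0.51 ± 0.12). The second tested probe set of Zkscan1 had the opposite sign (0.44 ± 0.22 for potassium) and did not pass, and other genes that did not pass had differences as large. Another tested probe set of Zfp655 passed after potassium (0.61 ± 0.16) but not after Ang II (0.39 ± 0.16). The second tested probe set of Zfp131 did not pass after potassium (0.17 ± 0.23). Of 20 alternative settings, 17 ended the call of Zfp639, 12 that of Zfp672 after Ang II, 9 each those of Zfp655 and Zfp622, and 8 that of Zfp131.

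**Figure D4:**
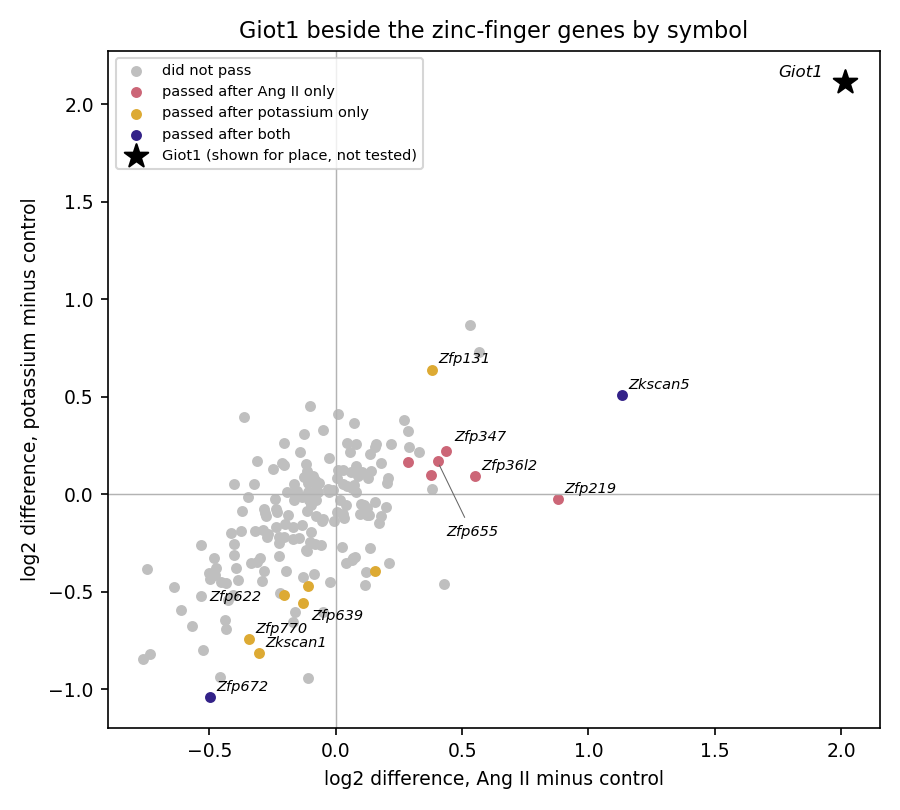
log2 difference of Ang II minus control (x axis) against potassium minus control (y axis) for 186 zinc-finger genes (dots) and for Giot1 (star). Dots are coloured by which comparison passed limma's test, and the genes named by rule are labelled. Giot1 stands at 2.01 and 2.12, beyond all other points, and Zkscan5 and Zfp672 are the genes that passed in both.

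The 3 Nr4a orphan receptor genes rose with both stimuli. Of 38 other nuclear receptors and transcription factors of steroidogenesis, 29 were tested, 5 rose and none fell in limma's test after Ang II, and 6 rose and 1 fell after potassium. The 5 of 29 called after Ang II make 17.2%, beside 2.20% of all tested probe sets, and the 7 after potassium make 24.1%, beside 5.36%. At an unadjusted p under 0.05, 3 were lower after Ang II and 5 after potassium. The list's median log2 difference was 0.02 and 0.03, close to that of all tested probe sets. This list and those of Nr5a1 targets, coregulators and KRAB genes were chosen with earlier results of these data known. They count the brightest probe set of each gene, unlike the share over all probe sets, so nothing is read from their shares. Nr4a1, the known activator of Giot1, rose about equally with Ang II (0.80 ± 0.11, SE, limma adjusted p = 5e-04) and potassium (0.82 ± 0.11). Nr4a2 rose by 0.79 ± 0.14 after Ang II and 1.94 ± 0.14 after potassium, and Nr4a3 by 0.58 ± 0.09 and 1.14 ± 0.09. Both were lower with Ang II than with potassium in limma's test, Nr4a2 at an adjusted p of 0.00013 and Nr4a3 at 0.0015, in a comparison where 4.79% of tested probe sets passed. Crem, a CREB family gene, rose by 0.45 ± 0.08 and 0.69 ± 0.08 at its brightest probe set. The coactivator gene Cited2 rose by 0.41 ± 0.06 and 0.24 ± 0.06. Of the other 5 tested Crem probe sets, 3 passed after Ang II, 1 had the opposite sign there, and 4 passed after potassium. Cebpb rose after potassium (0.57 ± 0.07) and Sp1 fell (-0.32 ± 0.07). Of the 4 other tested Sp1 probe sets none passed after potassium, and the one at 0.05 ± 0.23 had the opposite sign. Sp1's call and that of Cited2 after potassium ended in 10 and 13 of 20 alternative settings. Nr5a2, the closest relative of Nr5a1, had differences of -0.08 ± 0.23 and 0.16 ± 0.23 and did not pass.

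Genes that Nr5a1 is known to activate mostly did not pass the test. Of 34 listed, 22 were tested, 3 rose and none fell in limma's test with each stimulus, and the list's median was 0.0035 after Ang II and 0.03 after potassium. The 3 of 22 make 13.6%, beside 2.20% of all tested probe sets after Ang II and 5.36% after potassium. At an unadjusted p under 0.05, 1 was lower with each stimulus. The 3 that rose concern the supply of cholesterol and the response to ACTH. Star, which carries cholesterol into the mitochondrion, rose by 0.29 ± 0.06 (SE, limma adjusted p = 0.024) and 0.34 ± 0.06, Scarb1 by 0.46 ± 0.07 and 0.56 ± 0.07, and Mrap, a partner of the ACTH receptor, by 0.34 ± 0.08 and 0.44 ± 0.08. The calls of Star and Mrap after Ang II each ended in 11 of 20 alternative settings. The other tested Star probe set did not pass after Ang II (0.22 ± 0.07) and passed after potassium (0.27 ± 0.07). The steroid enzyme genes Cyp11a1, Hsd3b1, Cyp21a1 and Cyp11b1 had differences between -0.09 and 0.08 after Ang II and between -0.06 and 0.29 after potassium, and none passed. Akr1b7, an adrenal reductase gene controlled by Nr5a1, had differences of 0.06 ± 0.05 and 0.01 ± 0.05. Control means were 24712 for Cyp11a1, 25199.5 for Hsd3b1, 20780 for Cyp21a1 and 28312 for Akr1b7. The largest signal of any probe set was 33567.5 to 42803, depending on the array. Whether differences come out too small at such bright signals was not tested. Without the preparation term, none of the 22 was called after Ang II.

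Of 30 coregulators and modifiers of Nr5a1 and Nr0b1, 25 were tested, and 1 was called after Ang II and 2 after potassium. That is 4.0% and 8.0%, beside 2.20% and 5.36% of all tested probe sets. Sfpq, a splicing factor that also binds nuclear receptors, rose after Ang II (0.42 ± 0.08, SE, limma adjusted p = 0.013), Jun rose after potassium (0.46 ± 0.06), and Ddx20, a helicase that represses Nr5a1, fell after potassium (-0.69 ± 0.14, adjusted p = 0.0084). Ddx20 signals went from 439 ± 41.5 in control to 345 ± 23.6 after Ang II and 267 ± 34.1 after potassium (SD, n = 3), and its Ang II difference did not pass. Its call after potassium ended without preparation 1, without preparation 2 and without potassium replicate 1, and that of Sfpq in 8 of 20 settings. Of the other 2 tested Jun probe sets, 1 passed after potassium (0.65 ± 0.09) and 1 did not (0.37 ± 0.11). Of 17 tested genes of the machinery through which KRAB proteins repress, Hdac2 alone passed, after Ang II (0.29 ± 0.07, adjusted p = 0.044), which makes 5.88% beside 2.20% of all tested probe sets. Its call ended in 16 of 20 settings, among them every omission of an array or a preparation. Trim28, the main KRAB corepressor, had differences of 0.13 ± 0.07 and 0.15 ± 0.07. In limma's test none of the 17 passed after potassium, where 3 had an unadjusted p under 0.05.

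**Figure D5:**
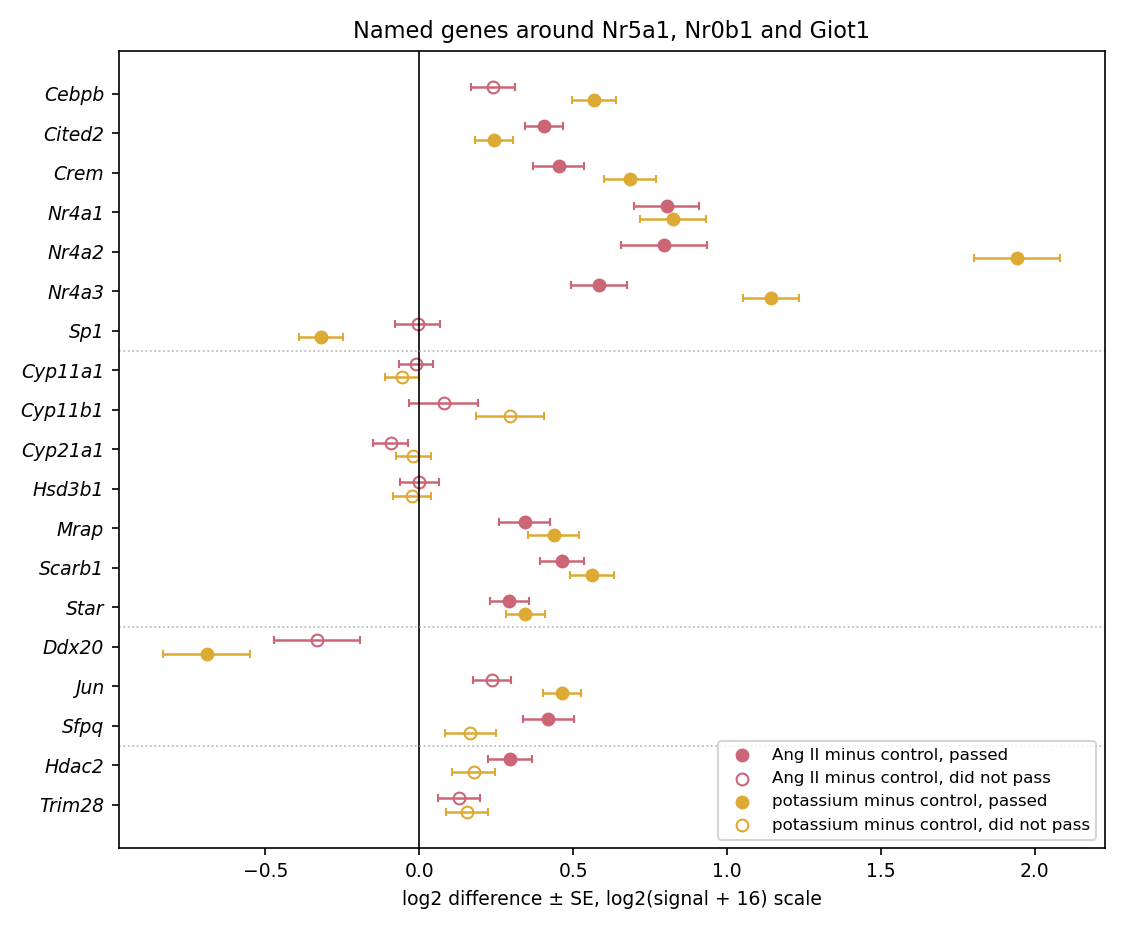
log2 difference ± SE (x axis) of named genes (rows) for Ang II minus control (red) and potassium minus control (yellow), filled where limma's adjusted p was under 0.05. From the top, dotted lines separate transcription factors, Nr5a1 target genes, coregulators and KRAB machinery, and the 3 Nr4a genes, Scarb1, Star and Mrap are filled in both colours.

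All arrays had a trimmed mean of 500.2, while their medians lay between 128 and 173. Of 9 markers of the glomerulosa and cortex, which include Nr5a1, 8 were tested, and Star alone was called, after each stimulus. Cyp11b2, the aldosterone synthase gene that defines the zone, was not analysed here. Markers of other cells were also measured, with no call by limma against control among the tested markers of fasciculata (2), medulla (5), endothelium (5), macrophages (6) and capsule fibroblasts (7). At an unadjusted p under 0.05 there was 1 each in fasciculata, macrophages and fibroblasts, all after potassium. Of 6 smooth muscle markers, Acta2 rose after Ang II (0.40 ± 0.10, SE, limma adjusted p = 0.049), and the summed signal of the 6 was 6551 to 9085 in control, 7287 to 9933 after Ang II and 6994 to 9117 after potassium. The part of these cells in the differences above was not tested.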

How the data were processed

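RNA of 9 tubes was measured on 9 arrays. The authors deposited linear intensity values, 1 per probe set and array, made with GCOS per the submitters' processing notes (version not given). The background method is not given in the sources used here. Trimmed means were equal, so a common scaling had been applied. Values were taken as log2(signal + 16). Probe sets whose mean passed the 40th percentile, 18625 of 31042, were tested with limma 3.58.1 in R 4.3.3, with the preparation as a fixed block, an intensity trend and Benjamini-Hochberg adjustment over all of them, at a threshold of 0.05. The design text gives the pairing, and arrays of 1 preparation correlated at 0.09 to 0.27 in their deviations from group means, those of different preparations at -0.21 to 0.05. On simulated data for Ang II over 18625 probe sets, 52% of 100 changes of 1 on the log2 scale and 15% of 100 changes of 0.5 were recovered, with 4 false calls. Symbols were updated through RefSeq. A gene in a list was represented by its brightest probe set. Named were the members, list genes called with either stimulus, 10 fixed genes, the up to 5 largest rises and falls among zinc-finger genes called for each stimulus, and the 6 genes most correlated with a member. Nr3c1, Amh, Por, Nr5a2, Akr1b7, Acta2, Zfp36, Zfp36l1 and the neighbours of Giot1 were added after their values were seen. A zinc-finger set planned from protein sequences was replaced by one from symbols (Zfp, Znf, Zkscan or Zscan with a number). The members and lists were chosen with earlier results of these data known. Alternatives changed the pseudocount, scaling, block, filter, variance trend and the arrays used.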

Additional observations from a re-analysis of the deposited data

Results flagged for a closer look

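In limma's test of Ang II minus potassium, the stimuli differed for 9 named genes chosen by rule. Nr3c1 and Por, which were added after their values were seen, also passed. Potassium gave the higher level of Nr4a2 (-1.15, adjusted p = 0.00013), Nr4a3 (-0.56, adjusted p = 0.0015) and Cebpb (-0.33, adjusted p = 0.014). Both Nr4a genes also rose after Ang II against control, and Cebpb did not pass there (0.24, adjusted p = 0.11). Ang II gave the higher level of the glucocorticoid receptor gene Nr3c1 (0.49, adjusted p = 0.019) and of Sp1 (0.31, adjusted p = 0.02). The same held for Por, the electron donor of microsomal steroid hydroxylases (0.37, adjusted p = 0.0098). Of these, Sp1 alone passed against control, after potassium. Amh, also added after its values were seen, differed by 1.23 ± 0.29 (SE). Its potassium mean, a signal of 65.2, was under the floor of the filter, which it passed through its other tubes. No test of Amh is given. Of 186 tested zinc-finger genes, 10 were higher and 1 was lower with Ang II than with potassium. These make 5.91%, beside 4.79% of all tested probe sets, of which 576 were called higher and 316 lower. Among the zinc-finger genes named by rule, Ang II gave the higher level of Zfp219 (0.90, adjusted p = 6e-06), Zkscan5 (0.62, adjusted p = 0.0013), Zfp672 (0.54, adjusted p = 0.0085), Zkscan1 (0.51, adjusted p = 0.012) and Zfp36l2 (0.46, adjusted p = 0.0013). Each gene was read at its brightest probe set. That of Crem did not pass (-0.23, adjusted p = 0.16), whereas 4 of its other 5 did, all lower with Ang II, from -0.50 to -1.12. For Jun the brightest did not pass (-0.23, adjusted p = 0.051) and 1 other did (-0.41, adjusted p = 0.018). The second probe set of Zkscan1 gave -0.04 and did not pass, and no other tested probe set of Sp1 passed. The call of Sp1 ended in 11 of 20 alternative settings and that of Cebpb in 7.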

How the results depend on the processing

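Giot1 kept its direction and moved by less than the spread between preparations for both stimuli in all alternatives, with differences of 1.80 to 2.18 for Ang II and 1.96 to 2.23 for potassium when arrays or preparations were left out. Scaling to a common median moved the median of all tested probe sets from -0.03 to 0.09 after Ang II and from -0.02 to 0.10 after potassium. It gave Nr0b1 0.071 for Ang II and 0.17 for potassium, the bright Nr5a1 probe set 0.29 for potassium, and 3 other transcription factors and 1 Nr5a1 target for Ang II minus potassium. Quantile normalization gave that Nr5a1 probe set 0.14, 1 coregulator for Ang II minus potassium and 0 KRAB genes after Ang II. With no replicate block, after Ang II 0 Nr5a1 targets, 0 coregulators, 0 KRAB genes and 4 zinc-finger genes were called, 5 zinc-finger genes after potassium, and for Ang II minus potassium 2 transcription factors, 0 targets and 7 zinc-finger genes. With no filter 1 target and 0 KRAB genes were called after Ang II and 1 target for Ang II minus potassium. With the 60th percentile as filter, which left out the dim Nr5a1 probe set, 4 coregulators were called after potassium, and 2 coregulators and 1 target for Ang II minus potassium. With no variance trend the calls after Ang II, after potassium and for Ang II minus potassium were 0, 2 and 0 transcription factors, 0, 0 and 0 targets, and 2, 3 and 2 zinc-finger genes, with 0 coregulators and 0 KRAB genes after Ang II and 1 coregulator after potassium. Without single arrays or preparations, the calls in the same order were 3 to 5, 5 to 7 and 2 to 6 transcription factors, 1 to 3, 1 to 3 and 0 to 2 targets, 0 to 1, 1 to 3 and 0 to 2 coregulators, and 3 to 8, 3 to 10 and 4 to 13 zinc-finger genes. They were 0 to 0 KRAB genes after Ang II, and the bright Nr5a1 probe set lay between 0.13 and 0.20 for potassium. Calls over all tested probe sets also changed with the setting. After Ang II, 310 were higher and 99 lower in the main fit. With no replicate block these were 172 and 25, and with no variance trend 31 and 7. After potassium, 518 and 480 became 292 and 214 with no block and 134 and 124 with no trend. For Ang II minus potassium, 576 and 316 became 288 and 154, and 101 and 55. Target counts for Ang II minus potassium can include Amh, whose test is not read. The cause of the shifts was not tested. The planned count of C2H2 zinc-finger genes by protein sequence was not run.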

Other observations

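The genes whose centred values were most like those of the bright Nr5a1 probe set over the 9 arrays were Slc22a17 (r = 0.98), Dcaf11 (0.98), LOC100909539 (0.98), Atp5f1d, a subunit of mitochondrial ATP synthase (0.97), Arid5a (0.97) and Ing1 (0.97). Each was a little lower after Ang II than in control and a little higher after potassium, as that Nr5a1 probe set was. They were picked for likeness over these same arrays, so the shared pattern came with the choice and nothing is read from it. The log2 differences of Atp5f1d were -0.16 ± 0.07 and 0.17 ± 0.07 (SE), and those of Arid5a -0.20 ± 0.11 and 0.33 ± 0.11. Dcaf11 held an Nr5a1 element of the form CAAGGCCA from base -165 to -158 upstream of its start. The stretches of Slc22a17, Atp5f1d, Arid5a and Ing1 held none of the motifs searched, and LOC100909539 had no stretch in RefSeq. The dim Nr5a1 probe set had Pim2 (0.99), Abhd5 (0.98), Mlf2 (0.98), Nhej1 (0.98), LOC100909675 (0.97) and Id1 (0.97) as nearest genes, none of which was on the list of the bright one. Nr0b1 was nearest to Adgra3 (0.96), E2f2 (0.95), Urb1 (0.95), a probe set of Crem (0.94), Prim2 (0.93) and Plekha6 (0.93). Their group means all lay under a signal of 500. The potassium mean was above control for all of them but E2f2 (308 ± 13.6 against 315 ± 87.2, SD, n = 3). It was 216 ± 55.8 against 156 ± 25.8 for Prim2, and 475 ± 39.2 against 373 ± 73.7 for that Crem probe set.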
